A study of Mus musculus with 24 samples.

Results

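The S100 proteins and galectins measured here are 10 genes, *S100a1*, *S100a4*, *S100a6*, *S100a8*, *S100a9*, *S100a10*, *S100a11*, *S100a13*, *Lgals1* and *Lgals3*. They were taken from the array by gene name, which gave 1 probe for each, 10 of 27398 gene names in all. L4 and L5 dorsal root ganglia (DRGs) of adult male wildtype (WT) mice and of *Nfil3* knockout (KO) mice, which lack this transcriptional repressor in all tissues through germ line Cre recombination, were taken at day 2 and day 5 after the sciatic nerve of the left leg was cut and rejoined. Control DRGs came from the non-injured side, so that they are not sham-operated tissue, and nothing in the labels says which animals gave them. The 6 groups (WT and KO, each as control, day 2 and day 5) hold 4 samples each, hybridized to 12 Agilent arrays with a different sample in each color channel. All values are normalized log2 intensities, where a difference of 1 is a doubling.

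S100 proteins are small calcium-binding proteins with EF-hand motifs that mostly act as dimers. On calcium binding they expose a surface that holds partner proteins such as annexins, and some are also released and act on receptors of other cells. Galectins bind beta-galactoside sugars on glycoproteins of the cell surface and matrix. Members of both families are known in injured sensory neurons, in glia and in blood-derived cells, and whole DRGs contain all of these. In whole tissue, more cells of a type and more RNA per cell cannot be told apart.

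The 8 S100 genes lie on chromosome 3. The probes of *S100a1* (chr3:90315133-90315192, minus strand), *S100a13* (chr3:90319950-90328319, across an intron), *S100a4* (chr3:90409842-90409902), *S100a6* (chr3:90418160-90418219), *S100a8* (chr3:90473778-90473837) and *S100a9* (chr3:90496585-90496644, minus strand) form a cluster in mm9, the build of the array files. The probes of *S100a11* (chr3:93330017-93330076) and *S100a10* (chr3:93368437-93368496) lie apart from this cluster, and 0 protein-coding genes are listed between these neighbours in the RefSeq gene table. The galectin probes lie at chr15:78760566-78760625 (*Lgals1*) and chr14:48004398-48005214 (*Lgals3*, across an intron). Since related genes can share sequence, the probes of *S100a6* and *S100a8* are shown with the letters they share, and that of *Lgals3*, the member with the largest change, beside them. Capitals mark a run of 12 letters, ACTTCNNGGAGT, in the part of the coding sequence that encodes the second EF-hand.
S100a6 probe: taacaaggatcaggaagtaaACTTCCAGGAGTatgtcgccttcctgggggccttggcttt
S100a8 probe: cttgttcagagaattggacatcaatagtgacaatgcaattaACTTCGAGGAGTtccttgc
Lgals3 probe: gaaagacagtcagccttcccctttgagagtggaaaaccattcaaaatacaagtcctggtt
The run occurs in 4 of 15 S100 probes (*S100a5*, *S100a6*, *S100a8* and *S100b*) and in 7 of 41174 probes of the array. The intensities of *S100a6* and *S100a8* did not follow each other over the 24 samples (r = -0.22).

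Promoters (250 bases before to 50 after the start, RefSeq, GRCm38.p6) were at hand for 8 of the 10 members, *S100a10* and *Lgals1* being the others. They were searched on both strands for the motifs TGACTCA (AP-1), TGACGTCA (CRE), TTACGTAA and TTATGTAA (NFIL3 and related bZIP factors) and TTCNNNGAA (STAT). The only matches were to AP-1 in the promoter of *S100a11*, at positions -136 and -38 from the start, and no match overlapped another. The 250 bases before the start of *S100a11* (chr3:93520246-93520495, plus strand) are shown, with both matches in capitals.
S100a11 promoter: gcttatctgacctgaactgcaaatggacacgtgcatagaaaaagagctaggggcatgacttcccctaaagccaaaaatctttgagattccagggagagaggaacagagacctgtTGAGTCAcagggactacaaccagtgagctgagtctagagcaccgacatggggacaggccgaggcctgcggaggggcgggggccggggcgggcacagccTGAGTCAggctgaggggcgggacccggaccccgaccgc
Of 32851 promoters in the table, 5.2% held at least 1 AP-1 match and 0.222% held 2 or more. The shares for the other motifs were 1.79% (CRE), 0.119% and 0.938% (the 2 NFIL3 forms) and 8.3% (STAT).

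All 10 members were well above background in all 24 samples, and none of their spots was saturated or marked as an outlier. *Nfil3* itself was at 8.44 to 9.01 in WT controls, 10.35 to 10.76 in WT at day 2, 10.64 to 11.09 in WT at day 5 and 2.83 to 7.59 in KO samples. In KO it was well above background in 1 of 4 controls, 2 of 4 samples at day 2 and 2 of 4 at day 5. The highest KO value belonged to KO control replicate 4, one of whose label fields gives day 5 where its title gives control. This sample was kept as control, and results for KO are given with and without it where it matters. The 4 controls that shared an array with a sample of another time point stood apart in genes known for a strong response to nerve injury. *Atf3* was at 9.04 to 9.98 in them and at 7.25 to 7.69 in the other 4 controls, and *Sprr1a* was 4.37 higher on average. For the 10 members the same 2 sets of controls differed by -0.42 (*S100a9*) to 0.29 (*S100a11*) and overlapped in every case. For *Nfil3*, KO lesion samples that shared an array with a WT lesion sample were at 5.30 to 6.225. The other KO lesion samples were at 2.83 to 4.14, and KO controls that shared an array with a WT control at 3.80 and 4.365. KO control replicates 1 and 4 each shared an array with a KO lesion sample and were at 2.94 and 7.59. The array partner of replicate 4, KO day 5 replicate 2, was at 3.40, so that the high value of replicate 4 had no WT sample beside it. The role of the array partner in these values was not tested.

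After the lesion 4 of the 10 members were higher in both genotypes and at both time points. These were *Lgals3* and *S100a11*, which rose between 2.63- and 4.35-fold, and *Lgals1* and *S100a10*, which rose between 1.39- and 2.34-fold. The count of 4 higher and 0 lower was the same in each of the 4 comparisons of a lesion group with its control (limma, Benjamini-Hochberg adjusted p under 0.05 over 41174 probes). Over all probes, 5.04% were called higher and 4.95% lower in WT at day 2, and 5.93% and 6.93% at day 5. In KO these shares were 5.09% and 5.82% at day 2 and 5.56% and 6.11% at day 5. The shares include probes that were not well above background, whereas all 10 members were above it in every sample. Members and all probes are thus not alike in signal, and the members were chosen with earlier results of these data known. The median change of the 10 members was 0.50 and 0.56 at day 2 and day 5 in WT and 0.57 and 1.04 in KO, beside medians of all probes between -0.04 and -0.02. Comparisons of both time points share their control samples. The other 6 members, *S100a8*, *S100a9*, *S100a1*, *S100a4*, *S100a6* and *S100a13*, did not pass in any of these comparisons.

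**Figure D1:**
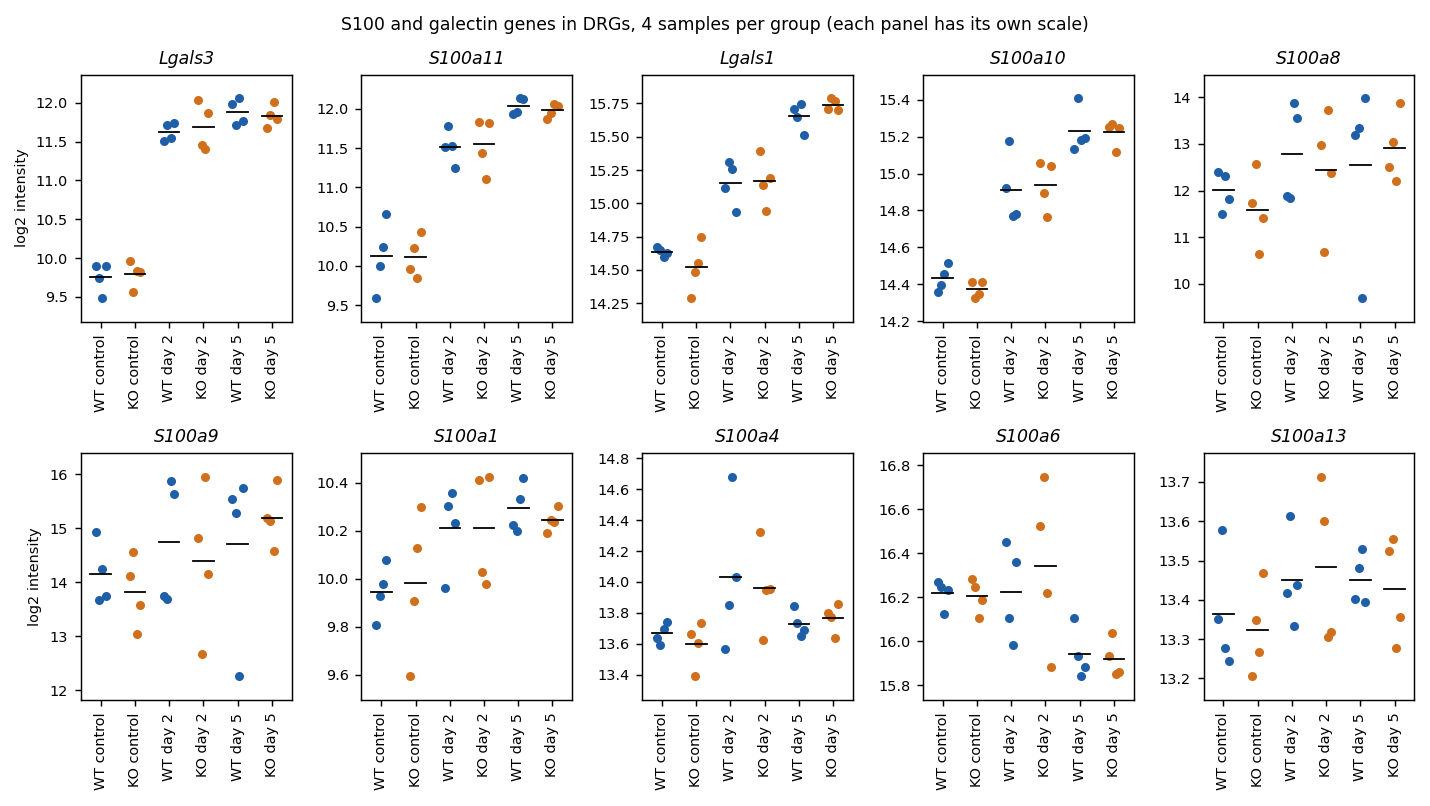
Log2 intensity of each member (vertical axis, with its own scale in each panel) in the 6 groups; each point is 1 sample (WT blue, KO orange) and each bar the mean of 4. Lesion samples of *Lgals3*, *S100a11*, *Lgals1* and *S100a10* lie above all controls of their genotype, while those of *S100a8* and *S100a9* spread over up to 4.28 log2 units within a group.

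**Figure D2:**
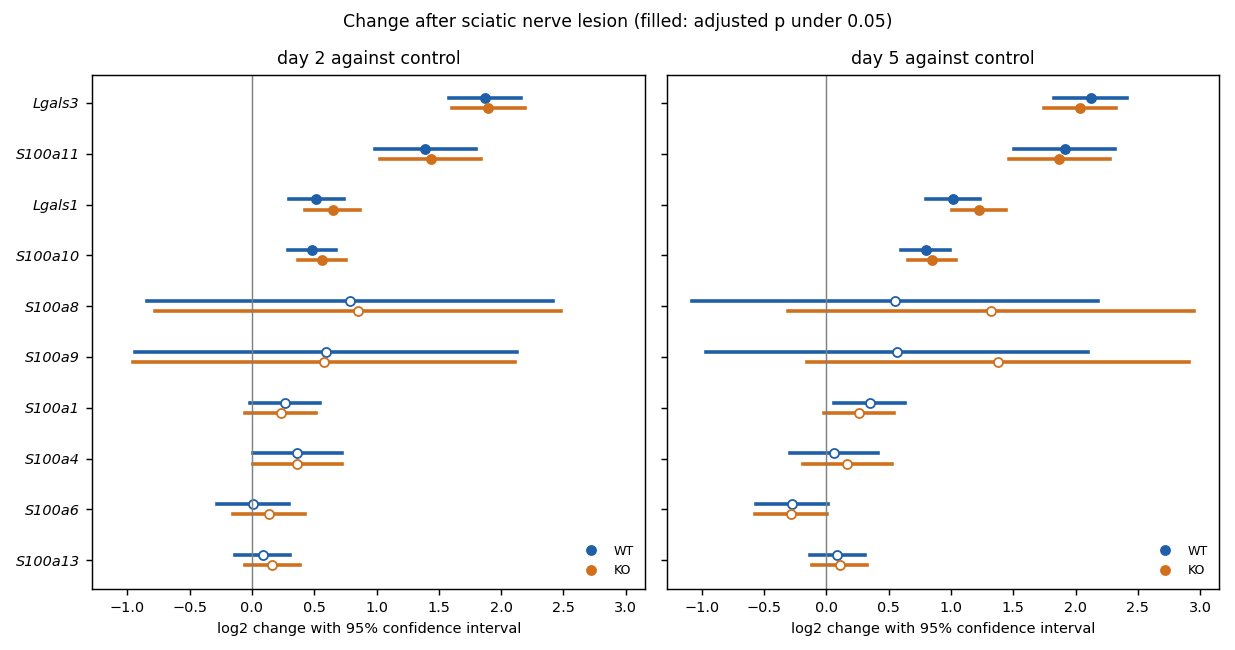
Log2 change of each member at day 2 (left) and day 5 (right) against control, in WT (blue) and KO (orange), with 95% confidence intervals; filled points passed an adjusted p of 0.05. The filled points are the 4 of *Lgals3*, *S100a11*, *Lgals1* and *S100a10* in each genotype, and the widest intervals are those of *S100a8* and *S100a9*.

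*Lgals3* encodes galectin-3, which can oligomerize, is made in quantity by macrophages and is also found in sensory neurons. In WT controls it was at 9.89, 9.75, 9.49 and 9.90, at day 2 at 11.51, 11.72, 11.54 and 11.75, and at day 5 at 11.99, 11.71, 12.06 and 11.76. In KO controls it was at 9.96, 9.56, 9.83 and 9.82, at day 2 at 12.04, 11.46, 11.41 and 11.86, and at day 5 at 11.67, 11.84, 12.01 and 11.80. Every lesion sample was above every control, whereas samples of day 2 and day 5 overlapped in both genotypes. The change in WT was 1.87 ± 0.14 (SE) at day 2 (3.66-fold, limma adjusted p = 1.69e-08) and 2.12 ± 0.14 at day 5 (4.35-fold, adjusted p = 1.901e-09). In KO it was 1.90 ± 0.14 (3.73-fold, adjusted p = 1.497e-08) and 2.04 ± 0.14 (4.10-fold, adjusted p = 3.605e-09). Day 5 and day 2, averaged over genotypes, differed by 0.19, with a 95% confidence interval of -0.01 to 0.40 (limma adjusted p = 0.372).

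*S100a11* encodes an S100 protein that binds annexin A1. Its WT controls were spread more widely than those of the galectins, at 9.59, 10.001, 10.24 and 10.67, with day 2 at 11.52, 11.78, 11.53 and 11.24 and day 5 at 11.94, 11.96, 12.13 and 12.13. KO controls were at 9.96, 10.22, 9.85 and 10.43, day 2 at 11.83, 11.43, 11.11 and 11.82, and day 5 at 11.87, 11.95, 12.07 and 12.04. In both genotypes the 3 time points did not overlap, with control lowest and day 5 highest. The change in WT was 1.39 ± 0.19 at day 2 (2.63-fold, limma adjusted p = 6.522e-05) and 1.91 ± 0.19 at day 5 (3.77-fold, adjusted p = 7.286e-07). In KO it was 1.44 ± 0.19 (2.70-fold, adjusted p = 4.572e-05) and 1.87 ± 0.19 (3.65-fold, adjusted p = 1.102e-06). The step from day 2 to day 5, 0.48 ± 0.14 averaged over genotypes, did not pass (limma adjusted p = 0.0655), but it did under some of the other settings tried.

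*Lgals1* encodes galectin-1, a dimer-forming galectin of neurons, glia and connective tissue. WT controls lay within 0.07 of each other, at 14.67, 14.65, 14.60 and 14.63. WT samples were at 15.11, 15.31, 15.26 and 14.93 at day 2 and at 15.71, 15.65, 15.74 and 15.51 at day 5. KO controls were at 14.29, 14.49, 14.55 and 14.74, day 2 at 15.39, 15.14, 14.94 and 15.19, and day 5 at 15.71, 15.79, 15.77 and 15.70. Again the 3 time points did not overlap in either genotype. The change was 0.52 ± 0.11 at day 2 and 1.02 ± 0.11 at day 5 in WT (1.43- and 2.02-fold, limma adjusted p = 0.00271 and 9.826e-07). It was 0.65 ± 0.11 and 1.22 ± 0.11 in KO (1.57- and 2.34-fold, adjusted p = 0.000327 and 7.928e-08). *Lgals1* also rose from day 2 to day 5, by 0.54 ± 0.07 averaged over genotypes (1.45-fold, limma adjusted p = 0.000195).

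*S100a10* encodes p11, an S100 protein that has lost calcium binding, forms a complex with annexin A2 and helps to bring the sodium channel encoded by *Scn10a* to the surface of sensory neurons. Its controls were at 14.36, 14.40, 14.46 and 14.52 in WT and at 14.41, 14.33, 14.35 and 14.42 in KO. At day 2 WT samples were at 14.92, 15.18, 14.77 and 14.78 and KO samples at 15.06, 14.90, 14.76 and 15.04. At day 5 they were at 15.13, 15.41, 15.18 and 15.19 in WT and at 15.25, 15.27, 15.12 and 15.25 in KO. Lesion samples were above all controls, and day 5 was above day 2 without overlap in KO but not in WT. The change in WT was 0.48 ± 0.09 at day 2 (1.39-fold, limma adjusted p = 0.00186) and 0.80 ± 0.09 at day 5 (1.74-fold, adjusted p = 5.166e-06). In KO it was 0.56 ± 0.09 (1.48-fold, adjusted p = 0.000394) and 0.85 ± 0.09 (1.80-fold, adjusted p = 2.529e-06). From day 2 to day 5 *S100a10* rose by 0.30 ± 0.07 averaged over genotypes (limma adjusted p = 0.0132).

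*Lgals1* and *S100a10* were thus 2 members called higher and 0 called lower between day 2 and day 5, in a comparison that called 1.99% of all probes higher and 1.09% lower. Tested within a genotype, *Lgals1* passed in WT (0.50, limma adjusted p = 0.0303) and in KO (0.58, adjusted p = 0.00752), and *S100a10* in neither (adjusted p = 0.174 and 0.221). The time points lay on more than 1 slide, which allowed 9 comparisons of lesion with control within a slide, with 1 or 2 samples a side. In these *Lgals3* was higher by 1.51 to 2.30, *S100a11* by 1.20 to 2.44, *Lgals1* by 0.445 to 1.32 and *S100a10* by 0.38 to 0.84. Without KO control replicate 4, changes in KO at day 2 and day 5 were 1.91 and 2.04 for *Lgals3*, 1.54 and 1.97 for *S100a11*, 0.72 and 1.30 for *Lgals1* and 0.58 and 0.86 for *S100a10*, and all of them passed.

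Markers of macrophages and monocytes changed as well. At day 5, 14 of 14 markers on the array were called higher, in WT by 1.15 to 2.22 (median 1.74) and in KO by 1.07 to 1.92 (median 1.61). At day 2, 6 of 14 passed in WT and 4 of 14 in KO, with medians of 0.60 and 0.53. The summed linear level of the 14 markers ranged over 10176 to 16558 in WT controls, 13681 to 27678 at day 2 and 32358 to 46206 at day 5. In KO it ranged over 11510 to 15485, 8988 to 20912 and 29820 to 40595. Between day 2 and day 5, 13 of 14 were called higher (median 1.15), as were *Lgals1* and *S100a10* of the members. At day 2 in WT the markers ran from 0.30 to 1.15 (*Mrc1*). At that time *Lgals3* was at 1.87, *S100a11* at 1.39, *Lgals1* at 0.52 and *S100a10* at 0.48. The part of macrophages in the change of the members was not tested. Of 11 sensory neuron markers, 5 and 6 were called lower at day 2 and day 5 in WT and 5 and 7 in KO, and none was called higher.

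**Figure D3:**
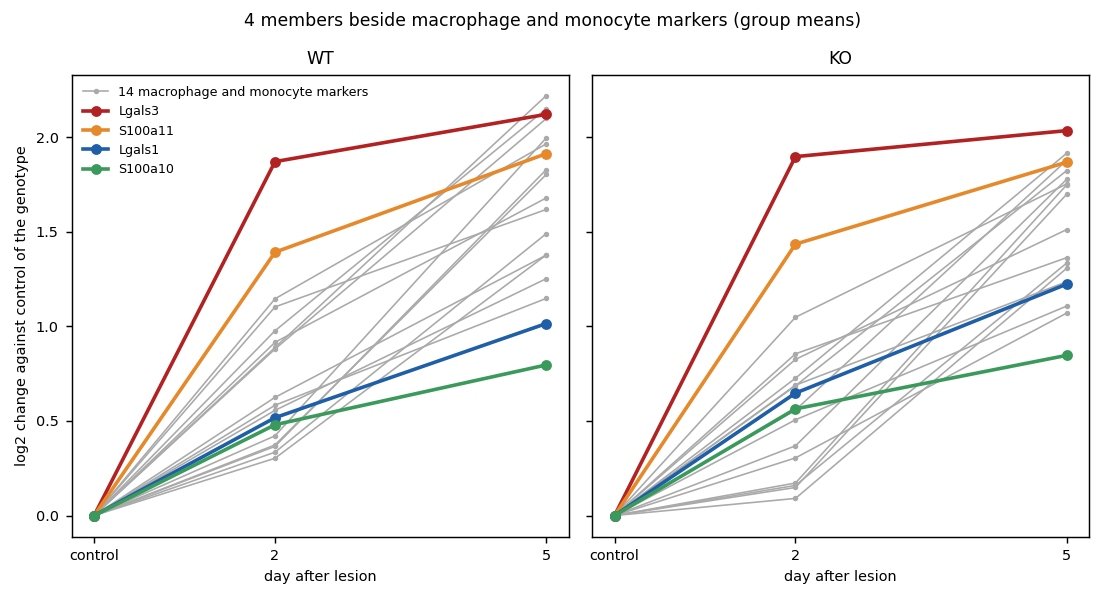
Mean log2 change against control of the same genotype (vertical axis) at day 2 and day 5 (horizontal axis) in WT (left) and KO (right), for 4 members (colored) and for each of 14 macrophage and monocyte markers (grey). The lines of *Lgals3* and *S100a11* lie above all 14 markers at day 2 and among or near them at day 5. Those of *Lgals1* and *S100a10* lie within the range of the markers at day 2.

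*S100a8* and *S100a9* encode the subunits of calprotectin, which is abundant in neutrophils and is also made by monocytes. These 2 members showed the widest spread of the 10. *S100a8* was at 12.39, 11.50, 12.30 and 11.81 in WT controls, at 11.87, 11.84, 13.89 and 13.55 at day 2, and at 13.19, 13.35, 9.70 and 13.98 at day 5. In KO controls it was at 11.73, 12.58, 10.64 and 11.40, at day 2 at 12.97, 10.68, 13.72 and 12.39, and at day 5 at 12.51, 13.04, 12.21 and 13.88. The lowest and the highest of all 24 values both belonged to WT at day 5, and lesion and control samples overlapped in every comparison. The SD within groups was 1.15 for *S100a8* and 1.08 for *S100a9*, above 99.8% and 99.7% of 21528 probes that were well above background in all samples, whose median SD was 0.19.

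*S100a9* was at 14.93, 13.66, 14.24 and 13.75 in WT controls, at 13.75, 13.70, 15.88 and 15.63 at day 2 and at 15.55, 15.28, 12.26 and 15.75 at day 5. KO samples were at 14.11, 14.56, 13.05 and 13.57 as control, at 14.82, 12.67, 15.96 and 14.15 at day 2 and at 15.19, 15.14, 14.58 and 15.89 at day 5. The same samples were high and low for both genes, which correlated over the 24 samples with r = 0.972 (0.975 after group means were taken out). Only KO samples at day 5 lay above all their controls for *S100a9*, at 1.38 ± 0.73 higher (limma adjusted p = 0.289). The changes of *S100a8* were 0.79 and 0.55 at day 2 and day 5 in WT and 0.85 and 1.32 in KO, with SE 0.78 and adjusted p from 0.355 to 0.782. Within slides they ran from -0.95 to 2.54. WT replicates 1 and 2 at day 2 were on 1 slide in Cy3 and replicates 3 and 4 on another in Cy5, so that slide, dye and the difference between them cannot be told apart. Without WT day 5 replicate 3 the change at day 5 in WT was 1.50 for *S100a8* (adjusted p = 0.162) and 1.38 for *S100a9* (adjusted p = 0.213).

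The genes most like this pair over the 24 samples were neutrophil genes. *S100a8* correlated with *Retnlg* (r = 0.98), *1100001G20Rik* (r = 0.976) and *S100a9*, and *S100a9* with *Camp*, an antimicrobial peptide of neutrophil granules (r = 0.98), *Retnlg* (r = 0.976) and *S100a8*. Of 12 neutrophil markers 11 were on the array, *Ly6g* not being found by its name, and their r with *S100a8* ran from 0.724 (*Cxcr2*) to 0.98. Defining markers were present, with *Mpo*, *Ngp*, *Ltf* and *Camp* well above background in all 24 samples and *Elane* in 5. In WT day 5 replicate 3, the lowest sample for the pair, *Camp* was at 7.26, against 9.89 to 10.42 in the other 3 samples of that group. For macrophage and monocyte markers r with *S100a8* was 0.223 to 0.587. After group means were taken out r was 0.712 to 0.984 for the neutrophil markers and -0.122 to 0.768 for the macrophage and monocyte markers, so that the ranges overlapped, with *Lyz1* (0.768) and *Lyz2* (0.727), the lysozyme genes, highest in the second list. Of the 11 neutrophil markers none was called after the lesion in either genotype at either time (median change 0.45 to 1.12, smallest limma adjusted p = 0.0758). Their summed level ranged over 1678 to 3372 in WT controls, 1730 to 8022 at day 2 and 779 to 6426 at day 5, and in KO over 1146 to 3243, 1534 to 8520 and 3137 to 9711. The part of neutrophils, or of blood in the tissue, was not tested. The 5 red cell markers had r = 0.485 to 0.809 with *S100a8*, and 0.537 to 0.91 after group means were taken out. These correlations are descriptions over samples that share slides and dyes.

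**Figure D4:**
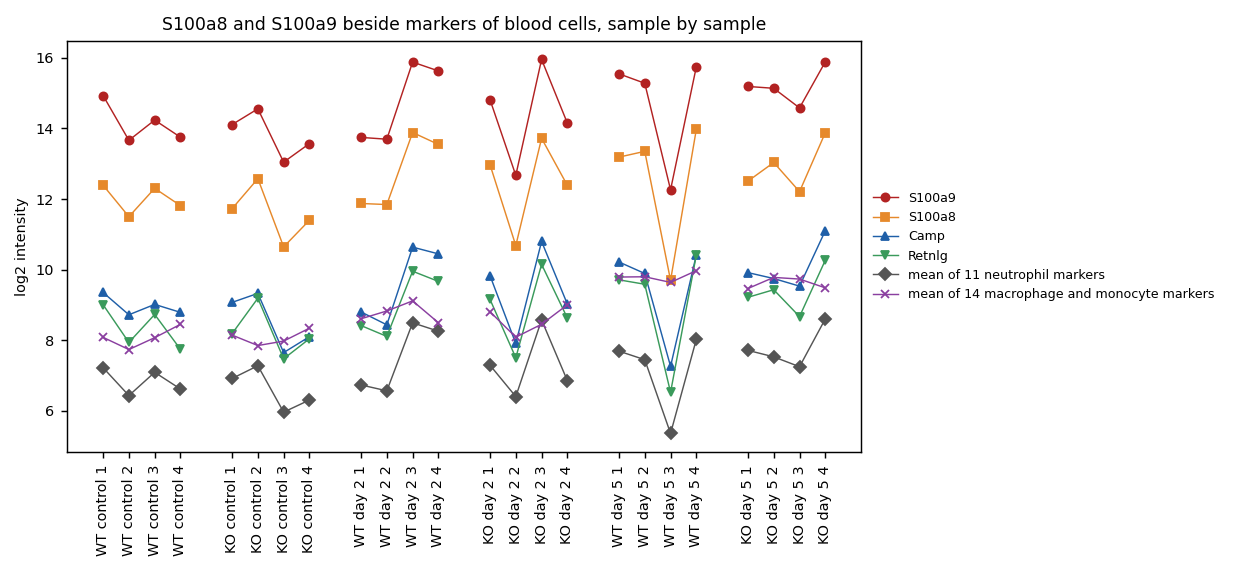
Log2 intensity (vertical axis) of *S100a8*, *S100a9*, *Camp* and *Retnlg* and the mean of 11 neutrophil and of 14 macrophage and monocyte markers in each of the 24 samples (horizontal axis); lines only join samples of a group. The pair and the neutrophil genes share their high and low samples, such as the low WT day 5 replicate 3, whereas the macrophage mean is similar in all 4 samples of WT at day 5.

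*S100a6* encodes calcyclin, named for its link to the cell cycle and known in glia and neurons. It was at 16.13 to 16.27 in WT controls, at 15.98 to 16.45 at day 2 and at 15.84, 15.88, 15.93 and 16.10 at day 5. In KO the ranges were 16.10 to 16.29, 15.88 to 16.75 and 15.85 to 16.04. All samples of day 5 lay below all controls in both genotypes, yet the differences of -0.28 ± 0.14 in WT and -0.28 ± 0.14 in KO did not pass (limma adjusted p = 0.24 and 0.236). Day 5 was also lower than day 2 by a value short of the threshold (-0.35 ± 0.10 averaged over genotypes, limma adjusted p = 0.0562), which it passed under some of the other settings tried.

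*S100a4*, *S100a1* and *S100a13* showed small differences. *S100a4*, known from motile and mesenchymal cells, was at 13.59 to 13.74 in WT controls, 13.57 to 14.68 at day 2 and 13.65 to 13.84 at day 5. In KO it was at 13.39 to 13.73, 13.62 to 14.32 and 13.64 to 13.86, and its change at day 2 was 0.36 ± 0.17 in both genotypes (limma adjusted p = 0.214 in WT and 0.197 in KO). *S100a1*, best known from muscle, was at 9.81 to 10.08 in WT controls and at 10.20 to 10.42 in WT at day 5, without overlap (0.35 ± 0.14, limma adjusted p = 0.109). With the slide as a block this difference was 0.39 and passed (adjusted p = 0.0446). In KO *S100a1* was at 9.59 to 10.30 in controls and 10.19 to 10.31 at day 5 (0.26, adjusted p = 0.27). *S100a13*, which takes part in the release of fibroblast growth factor 1, had the smallest range of the 10, with all 24 samples between 13.21 and 13.71 and changes of 0.09 to 0.16 (limma adjusted p from 0.389 to 0.728). *S100a13* and *S100a1* are neighbours in the gene table.

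Besides the 4 called members, some members lay apart from control at day 5 without passing (limma adjusted p from 0.109 to 0.289). These were *S100a1* and *S100a6* in WT and *S100a9* and *S100a6* in KO. How many of all probes lay apart in this way was not counted, so that no result about the members is drawn from it.

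The comparison of KO with WT asked whether the RNA levels of the members differed between genotypes. None of the 10 members passed between genotypes at any of the 3 time points (limma), in a comparison that called 0.017% of probes. At any time 0 of 10 had an unadjusted p under 0.05, and the share of all probes under that p is not given here. Groups of KO and WT overlapped for every member at every time. For *Lgals1* in controls the overlap rested on KO control replicate 4 (14.74), the sample with the unclear label. The other KO controls were at 14.29, 14.49 and 14.55, below all WT controls at 14.60 to 14.67. For *Lgals3* KO minus WT was 0.04 in controls (95% confidence interval -0.26 to 0.33), 0.06 at day 2 (-0.23 to 0.35) and -0.05 at day 5 (-0.34 to 0.24). For *S100a10* the values were -0.06 (-0.25 to 0.14), 0.03 (-0.17 to 0.22) and -0.01 (-0.20 to 0.19), the narrowest intervals of the set. *Lgals1* was at -0.12 (-0.34 to 0.10) in controls and 0.09 (-0.13 to 0.31) at day 5, and *S100a11* at -0.06 (-0.46 to 0.35) at day 5. Intervals for *S100a8* and *S100a9* reached from about -2 to 2 log2 units (for *S100a8* at day 5 from -1.28 to 1.99), so that a genotype difference of that size in the pair was not detectable here.

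The time*genotype interaction was called for 0 of 10 members and for 0% of probes (limma F test). At an unadjusted p under 0.05 were 919 of 41174 probes and 0 of 10 members. With a share that small over all probes, no result about the members is drawn from this count. The smallest p among the members was 0.384, for *Lgals1*. The lesion change of *Lgals1* at day 5 was larger in KO than in WT by 0.21 (95% confidence interval -0.10 to 0.52), and that of *Lgals3* differed by -0.09 (-0.50 to 0.33).

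**Figure D5:**
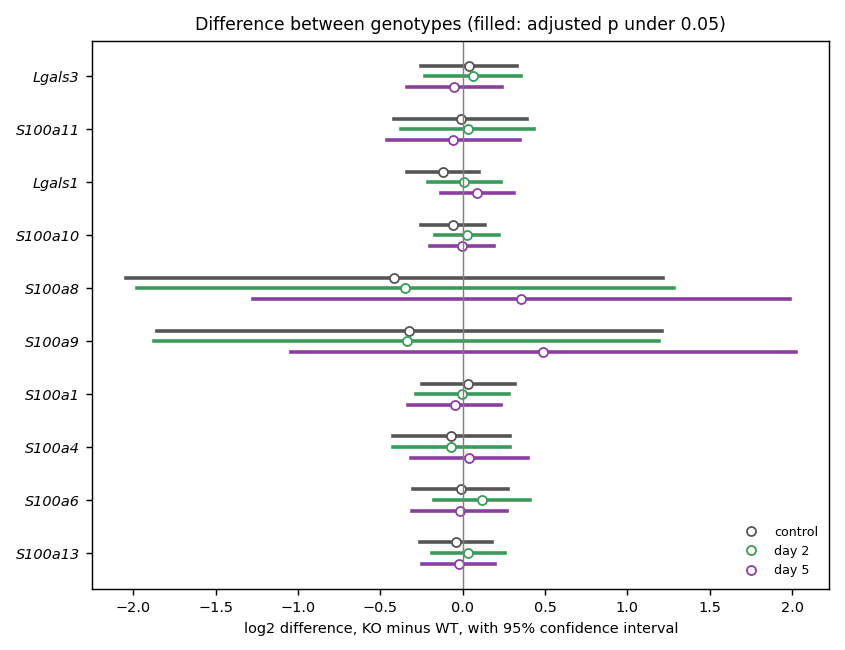
Log2 difference, KO minus WT, of each member in controls, at day 2 and at day 5, with 95% confidence intervals. No point is filled, which would mark an adjusted p under 0.05, and every interval includes 0.

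Over the 24 samples *S100a10* correlated with *S100a11* (r = 0.956), *Lgals1* (r = 0.947) and *Lgals3* (r = 0.915), and *S100a11* with *Lgals3* (r = 0.944). After group means were taken out these were 0.561, 0.398, 0.204 and 0.26. The genes most like each member (the highest r over 24 samples among 21528 probes) differed between members. For *S100a10* they were *Gap43*, a growth cone protein (r = 0.978), *Chl1*, a neural adhesion molecule (r = 0.966), and *Marcksl1* (r = 0.963). For *Lgals1* they were *Egfr* (r = 0.984), *Loxl2* (r = 0.971) and *Pde1a* (r = 0.969), for *Lgals3* they were *Nkain1* (r = 0.992), *Adam8* and *Kif22* (both r = 0.991), and for *S100a11* *Cyp4b1* (r = 0.978), *Gm12854* (r = 0.977) and *Cited2* (r = 0.976). For the members that did not pass, other than *S100a8* and *S100a9*, the highest r over the 24 samples was lower. It was 0.906 for *S100a1* (*2310039H08Rik*), 0.9 for *S100a4* (*1810037I17Rik*), 0.865 for *S100a6* (*Nt5c*) and 0.858 for *S100a13* (*Snx6*). This r includes the differences between groups. After group means were taken out, r with the same genes was 0.896, 0.898, 0.774 and 0.871. For the genes named above for *S100a10*, *Lgals1*, *Lgals3* and *S100a11* it was then 0.522 (*Chl1*) to 0.806 (*Nkain1*).

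At day 5 in WT 1 of 7 other S100 genes was called higher and 2 lower, beside 5.93% and 6.93% of all probes. In each of the other lesion comparisons it was 0 higher and 1 lower. Of 7 other S100 genes on the array, *S100g*, which encodes calbindin-D9k, was called lower in all 4 comparisons, by -0.65 and -0.64 at day 2 and day 5 in WT and -0.76 and -0.69 in KO (limma adjusted p from 0.00836 to 0.0247). At day 5 in WT *S100a3* was called higher (0.51, adjusted p = 0.00506) and *S100b*, the glial S100 gene, lower (-0.49, adjusted p = 0.0201); in KO these were 0.34 (adjusted p = 0.0686) and -0.35 (adjusted p = 0.119). *S100a7a* was well above background in only 3 samples. Of 7 other galectin genes 1 was called once, *Lgals9*, by -0.38 at day 5 in KO (limma adjusted p = 0.0249, against -0.13 in WT), and *Lgals12* was well above background in no sample. The median change of the other S100 genes was -0.21 to -0.15 and that of the other galectins -0.01 to 0.18.

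Of genes whose products bind S100 proteins, 3 of 21 were called higher and 3 of 21 lower at day 5 in each genotype. Over all probes 5.93% were called higher and 6.93% lower at day 5 in WT, and 5.56% and 6.11% in KO. *Anxa1*, whose product binds S100a11, rose by 2.58 and 2.86 at day 2 and day 5 in WT and by 2.32 and 2.94 in KO (limma adjusted p from 2.718e-08 to 1.021e-06). *Anxa2*, whose product binds S100a10, was higher at day 5 in WT by 0.39 (limma adjusted p = 0.0069) and by 0.25 in KO (adjusted p = 0.0904). *Plat*, the tissue plasminogen activator, which can bind the complex of these 2 proteins, rose by 0.88 in WT and 0.76 in KO at day 5 (adjusted p = 0.000583 and 0.00228). *Scn10a*, the sodium channel that S100a10 binds, fell by 1.15 and 1.14 at day 5 (adjusted p = 0.000988 and 0.00123). *Fgf1*, whose release involves S100a13, fell by 0.50 and 0.54 (adjusted p = 0.0067 and 0.00425), and *Anxa11*, which binds S100a6, by 0.54 and 0.48 (adjusted p = 0.0143 and 0.0314). The third gene called higher at day 5 in KO was *Sugt1* (0.34, adjusted p = 0.00469; 0.22 in WT, adjusted p = 0.058). Of the receptors for S100a8 and S100a9, *Tlr4* was at -0.04 and -0.19 at day 5 (adjusted p = 0.923 and 0.395), and *Ager* was well above background in 1 sample of 24.

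Of 14 genes for galectin partners 4 were called higher and 1 lower at day 5 in each genotype, beside shares of all probes of 5.93% and 6.93% in WT and 5.56% and 6.11% in KO. *Itgb1*, a beta integrin subunit, rose by 0.89 in WT and 0.76 in KO (limma adjusted p = 0.000358 and 0.00183), and *Plxna4*, a semaphorin co-receptor, by 0.97 and 0.81 (adjusted p = 0.000151 and 0.000999). *Ptprc*, the leukocyte surface molecule CD45, rose by 1.30 and 1.20 (adjusted p = 0.000809 and 0.00184), and *Havcr2* by 0.73 and 0.96 (adjusted p = 0.0181 and 0.00264), with 2 of 4 WT and 1 of 4 KO controls well above background. *Mgat5*, the enzyme that builds the branched sugars that galectins bind, fell by 0.55 and 0.61 (adjusted p = 0.0168 and 0.00885). At day 2 *Cd44*, a hyaluronan receptor, was higher by 0.79 in WT and 0.88 in KO (adjusted p = 0.000474 and 0.000145), and *Lgals3bp*, a secreted galectin-3 ligand, fell by 0.52 and 0.54 (adjusted p = 0.0363 and 0.0284). From day 2 to day 5 *Cd44* changed by -0.50 averaged over genotypes (limma adjusted p = 0.00384), so that its rise was larger at day 2.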

How the data were processed

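DRG RNA was hybridized by the authors to Agilent 4x44K arrays, with 4 replicates per condition, 2 per dye. Nothing in the labels ties samples to animals, so that p-values measure the spread between these samples. Samples were grouped by title. The authors deposited foreground and background intensity per spot and channel from Agilent Feature Extraction (10.7.3.1 per the file headers), not normalized. In R 4.3.3 with limma 3.58.1 (data.table version 1.17.8, statmod 1.5.0) the background was corrected (Edwards, mean foreground, median background), control spots and outlier spots were left out, log2 values were quantile normalized over 24 channels and spots of a probe averaged. One mean per group was fitted (lmFit, eBayes), contrasts were tested over 41174 probes and a Benjamini-Hochberg adjusted p under 0.05 was called. A member's 1 probe stood for the gene. For genes of the lists the brightest probe did. Precision is limited by the number of arrays and by signal over background, since 54.5% to 72.3% of probes were well above background in a sample. The model was tested on simulated data. RefSeq tables (GRCm38.p6) gave promoters and gene neighbours, with no coordinates carried over to mm9.

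The members and lists were chosen with earlier results of these data known. Named in the text are all 10 members, other S100 and galectin genes and partners that passed at day 5, partners of a described member, the 3 genes most like a member, and *Nfil3*, *Atf3* and *Sprr1a*. Counts of 5 or fewer and *Cxcr2*, *Mrc1*, *Lyz1*, *Lyz2*, *Cd44*, *S100a7a*, *Lgals12*, *Camp* and other markers were named after their values were seen. Markers of satellite glia, Schwann cells, fibroblasts, endothelium and red cells were looked at too. In these lists 2 of 7, 1 of 8, 0 of 6, 0 of 5 and 0 of 5 were called at day 2 in WT. At day 5 in WT 2 of 7 satellite glia markers were called and none of the others. The satellite glia calls in WT were 1 higher and 1 lower at each time, and the Schwann cell call was higher. In KO 1 of 7 satellite glia markers was called higher at each time and 2 of 7 lower at day 2. No marker of the other lists named here was called in KO.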

Additional observations from a re-analysis of the deposited data

Results flagged for a closer look

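In 60 groups of 4 samples (10 members in 6 groups) the highest or lowest sample was compared with the rest by Dixon's test, which chance alone flags in about 5% of groups. *S100a9* in WT day 5 replicate 3 (12.26) lay far below the other 3 samples of its group, which were at 15.28 to 15.75. Without it the change at day 5 in WT was 1.38 in place of 0.56 and did not pass either (limma adjusted p = 0.213). *S100a10* in KO day 5 replicate 3 (15.12) lay below the others at 15.25 to 15.27. Without it the change at day 5 in KO was 0.88 in place of 0.85 (adjusted p = 9.131e-06).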

How the results depend on the processing

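The 4 members called after the lesion, *Lgals3*, *S100a11*, *Lgals1* and *S100a10*, passed in the same direction in all 4 lesion comparisons under every setting tried and with each sample left out. Background correction was left out or done by normexp (offset 50), medians replaced mean foreground, and loess with Aquantile or the scanner's processed signals (75th percentile) replaced quantile normalization. Outlier spots were kept, probes were averaged per gene, and probes not well above background in 4 or more samples were dropped. Dye was a covariate, and slide, replicate number and array partner were each a block, the array a random one. The variance prior was given an intensity trend. The count for day 5 against day 2 went from 2 to 4 with no background correction, with normexp, with the filter and with the intensity trend, where *S100a11* and *S100a6* passed as well. It was 3 with processed signals or the slide block (*S100a11* added) and with loess, dye, replicate number, array or array partner (*S100a6* added). With the slide block 5 members passed at day 5 in WT, *S100a1* (0.39) being added. With samples left out it ran from 2 to 4, 4 without KO day 2 replicate 4 (*S100a11* 0.52, *S100a6* -0.43). Counts for KO against WT and for the interaction stayed at 0. Changes of sign concerned values near 0 that did not pass, with the slide as a block *S100a6* at day 2 in WT (-0.0174) and *S100a13* between day 5 and day 2 (0.0134). With samples left out these ran from -0.0695 to 0.0869 and from -0.0571 to 0.0111, and *S100a8* between day 5 and day 2 from -0.18 to 0.59. The cause of these moves was not tested.

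Samples with the same replicate number did not deviate together, since correlations of their deviations ran from -0.064 to 0.208 and in no comparison were all over 0.1. With the replicate number as a block the lesion counts stayed at 4, 4, 4 and 4, and 3 members passed between day 5 and day 2, *S100a6* with a value of -0.35 (adjusted p = 0.033) being the additional one.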
